A study of Mus musculus with 9 samples.

Results

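The proteasome is the protease complex that degrades most ubiquitin-tagged proteins of the cell, and the genes of its subunits, activators, inhibitor and assembly chaperones mostly carry the prefix Psm. Symbols made of Psma to Psmg and a number selected 50 genes, with 1 array row each, out of 19505 genes measured in white adipose tissue of mice. Of these, 48 fall into 12 known classes, and 2 were caught by their names only: Psmc3ip, a meiotic recombination factor, and Psme3ip1, a protein that binds the activator encoded by Psme3. The catalytic subunit gene Psmb5 had no row among the named rows and was not analysed here.

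Proteolysis takes place inside the 20S core, a barrel of outer alpha rings and inner beta rings in which the products of Psmb5, Psmb6 and Psmb7 hold the active sites. The 19S regulatory particle caps the core: a ring of ATPases (Psmc genes) unfolds substrates, and non-ATPase subunits (Psmd genes) bind ubiquitin chains and remove them. In immune cells and under interferon gamma, Psmb8, Psmb9 and Psmb10 replace Psmb5, Psmb6 and Psmb7 to form the immunoproteasome, and Psme1 and Psme2 form the PA28 activator, which favours peptides for presentation on MHC class I. In brown fat cells of mice the transcription factor NRF1 (Nfe2l1) is known to sustain proteasome activity.

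The 9 Clariom S arrays each held RNA of 1 white fat sample from a male mouse, with 3 arrays in each of 3 groups, and the fat depot was not stated. The VE group was C57BL/6JHamSlc-ob/ob mice that received rice bean (Vigna umbellata) extract by oral gavage at 100 mg/kg over 6 weeks. The ob/ob vehicle group was the same strain given vehicle, and the WT group was lean C57BL/6JHamSlc-+/+ mice, also given vehicle; both lasted 42 days. Mice were 6 weeks old when obtained, and all of them ate standard chow. ob/ob mice lack functional leptin from birth, which both obese groups share, and no array here held lean mice given VE. Values are log2 signals after the submitters' normalization, so a difference of 1 is a doubling, and levels of different genes are not set against each other because their probes differ.

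Array medians lay between 6.11 and 6.26, while the spread of the values was wider on the obese arrays: the SD over all rows was 3.26 to 3.3 on VE arrays, 3.16 to 3.2 on ob/ob vehicle arrays and 2.9 to 3.1 on WT arrays. The adipocyte marker list, with Adipoq, Plin1 and Fabp4 among its members, averaged 15.9 to 16.3 on VE arrays, 15.6 to 16 on ob/ob vehicle arrays and 14.7 to 16 on WT arrays. The macrophage list passed the test as higher in ob/ob vehicle than in WT mice for 18 of 21 genes (85.7%, next to 9.02% of all rows). Its mean was 12.5 to 13.2 on VE arrays, 12.6 to 12.8 on ob/ob vehicle arrays and 7.75 to 9.02 on WT arrays. Epithelial markers stood at 7.35 to 9.37 on WT arrays, highest on WT replicates 1 and 2, against 4.49 to 4.91 on VE arrays and 4.72 to 4.81 on ob/ob vehicle arrays. Of these markers 12 of 16 passed the test as lower in ob/ob vehicle mice (75%, next to 5.05% of all rows). The other cell types listed (T and NK cells, B cells, endothelium, stromal progenitors, skeletal muscle, testis) had 0 to 2 genes called in ob/ob vehicle against WT. These were 0 to 16.7% of a list, next to 14.1% of all rows called in either direction. The part of these cell types in the differences below was not tested, and in bulk tissue a change in the number of cells of a type and a change in RNA per cell cannot be told apart.

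Promoter windows from RefSeq (build GRCm38.p6), 250 bases before to 50 bases after a start site, were analysed for 42 of the 50 genes. Psma8 and Psmg2 were among the genes with no analysed window, so the window counts and motif shares do not cover them. All 50 genes had a RefSeq position, so a missing window here does not show that RefSeq lacks the gene. Shown first are Psmc4, an ATPase of the 19S ring, at chr7:28050043-28050342 (minus strand), and Psmb10, the immunoproteasome subunit that replaces Psmb7, at chr8:105938343-105938642 (minus strand): these had the largest increases in ob/ob vehicle over WT mice. Below them are Psme1, the alpha subunit of PA28, at chr14:55578244-55578543 (plus strand), and Psmb8, the immunoproteasome subunit that replaces Psmb5, at chr17:34197945-34198244 (plus strand). These were picked as interferon-inducible members that hold an interferon-stimulated response element or a gamma-activated site. Psmb9, which is not shown, held CCAAT. Capitals mark a match to the interferon-stimulated response element (GAAA, any pair of bases, GAAA), read on the opposite strand from position 10 after the start in Psme1, and a match to TTCNNNGAA, the gamma-activated site, from position -97 in Psmb8.
Psmc4: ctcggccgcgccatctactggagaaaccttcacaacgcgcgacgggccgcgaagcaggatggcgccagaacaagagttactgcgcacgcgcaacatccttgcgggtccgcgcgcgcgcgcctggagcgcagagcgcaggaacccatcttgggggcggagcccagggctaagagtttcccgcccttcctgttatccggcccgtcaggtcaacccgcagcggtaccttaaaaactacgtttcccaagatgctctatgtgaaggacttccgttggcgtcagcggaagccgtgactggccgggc
Psmb10: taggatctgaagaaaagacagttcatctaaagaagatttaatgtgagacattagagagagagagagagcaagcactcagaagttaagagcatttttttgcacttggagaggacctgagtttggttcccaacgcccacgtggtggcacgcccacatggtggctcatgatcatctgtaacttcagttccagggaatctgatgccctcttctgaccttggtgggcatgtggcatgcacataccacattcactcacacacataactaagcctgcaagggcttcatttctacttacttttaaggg
Psme1: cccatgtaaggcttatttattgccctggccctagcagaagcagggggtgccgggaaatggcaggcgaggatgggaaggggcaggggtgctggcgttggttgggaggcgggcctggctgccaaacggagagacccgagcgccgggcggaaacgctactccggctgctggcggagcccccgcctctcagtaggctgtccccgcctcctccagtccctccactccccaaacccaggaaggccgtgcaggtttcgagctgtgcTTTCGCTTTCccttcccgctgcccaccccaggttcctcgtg
Psmb8: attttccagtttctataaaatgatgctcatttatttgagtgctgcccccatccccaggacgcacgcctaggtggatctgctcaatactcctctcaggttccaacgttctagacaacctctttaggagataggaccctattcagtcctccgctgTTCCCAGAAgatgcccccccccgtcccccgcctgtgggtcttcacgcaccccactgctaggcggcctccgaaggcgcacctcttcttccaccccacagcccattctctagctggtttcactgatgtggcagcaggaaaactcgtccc

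The Psmc4 window was rich in CG pairs, with 34 of them and a GC content of 63.7%, whereas the Psmb10 window had 3 CG pairs and 45.7% GC. Neither held any of the 4 motifs searched on both strands. Over the 46 windows of the set the median was 19 CG pairs and 58.1% GC, against 7 CG pairs and 52.7% over all 32851 windows of this length. The interferon-stimulated response element occurred in 5 of the 42 genes (11.9%; Psmb3, Psmd4, Psmd9, Psme1 and Psmg4) and in 3.44% of all windows. The antioxidant response element core TGACNNNGC, through which NRF1 and NRF2 bind, occurred in 5 genes (11.9%), against 12.4% of all windows. TTCNNNGAA occurred in 3 genes (7.14%; Psmb8, Psmd2 and Psmg1), against 8.3%, and CCAAT in 16 genes (38.1%), against 37.4%. A gene was counted if any of its windows matched, whereas the shares of all are of single windows. Counted by window, 5, 5, 3 and 16 of the 46 windows of the set held these motifs, in the order given. No match of one motif overlapped a match of another, and a match in these letters does not show that a factor binds.

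In ob/ob vehicle against WT fat, the comparison of obese with lean tissue, 7 of the 50 proteasome genes rose and 0 fell. They were Psmc4, Psmb10, Psmd14, Psme3, Psmd4, Psmd3 and Psma1, with increases of 1.82-fold to 2.77-fold. These 7 genes are 14% of the set, next to 14.1% of all rows called in either direction; 9.02% of all rows were called higher and 5.05% lower, by limma at an adjusted p under 0.05. The share called in either direction was thus at the background, and every called member was higher in ob/ob vehicle fat. The log2 difference was above 0 for 35 of 50 genes, against 47.4% of all rows, with a median of 0.365 against -0.04 over all rows. In 16 genes every ob/ob vehicle array was above every WT array (15.7% of all rows), and in 0 genes the reverse held (13.1% of all rows).

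**Figure D1:**
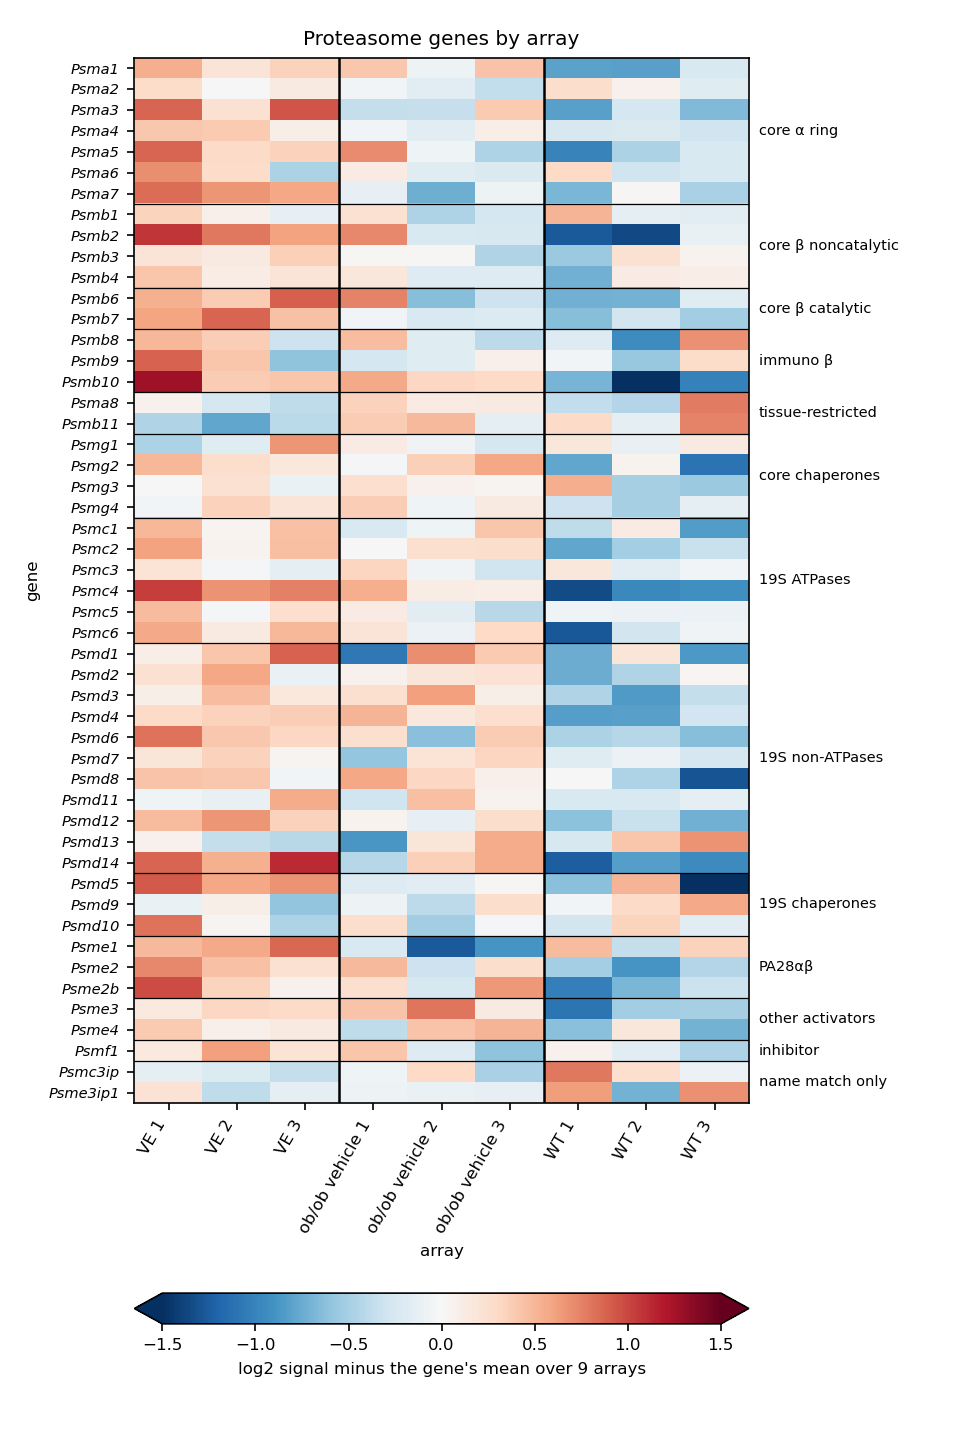
Each cell is the log2 signal of 1 gene on 1 array minus the mean of that gene over the 9 arrays, with arrays in columns by group (VE, ob/ob vehicle, WT) and genes in rows by class; colours saturate at 1.5 above or below the mean. WT columns are mostly blue and VE columns mostly red, while Psme1 is blue only in the ob/ob vehicle arrays and in WT replicate 2.

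The 19S regulatory particle held 4 of the 7 called genes. Psmc4 had 10.93, 10.50 and 10.49 in ob/ob vehicle fat, against 9.04, 9.42 and 9.47 in WT fat. All 3 ob/ob vehicle arrays were above all 3 WT arrays, a log2 difference of 1.33 ± 0.24 (SE, n = 3 arrays per group) or 2.51-fold (limma, adjusted p = 0.00466). Psmd14, the deubiquitinase that cuts ubiquitin chains off the substrate, had 9.27, 10.06 and 10.26 in ob/ob vehicle fat, against 8.46, 8.87 and 8.75 in WT fat. The groups were apart here too, although ob/ob vehicle replicate 1 lay closer to the nearest WT array than to the other arrays of its group, and the difference was 1.17 ± 0.30 (limma, adjusted p = 0.0270). Psmd4, a ubiquitin receptor, had 11.65, 11.30 and 11.39 in ob/ob vehicle fat, against 10.31, 10.32 and 10.85 in WT fat. Its difference was 0.95 ± 0.23 (limma, adjusted p = 0.0210), without overlap. Psmd3, a scaffold subunit of the lid, had 12.22, 12.59 and 12.06 in ob/ob vehicle fat, against 11.52, 11.13 and 11.62 in WT fat, which gave 0.87 ± 0.24 (limma, adjusted p = 0.0402).

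Among all 17 subunits of the 19S particle (6 ATPases and 11 non-ATPases), 4 rose, 0 fell and 13 did not pass, with a median of 0.55. The 4 are 23.5% of the particle, next to 9.02% of all rows called higher and 14.1% called in either direction. These genes have mean levels over the 9 arrays between 8 and 14, and brighter rows were called more often. Of rows at 8 to 10, 10 to 12 and 12 to 14, 16%, 18.7% and 23.1% were called higher, so the share of the particle was near that of rows of like level. The other ATPases had unlike values: Psmc2 and Psmc6 had differences of 0.71 ± 0.24 and 0.67 ± 0.32 without passing (limma, adjusted p = 0.0753 and 0.206), and Psmc3 and Psmc5 had 0.00 ± 0.24 and -0.07 ± 0.23. Psmd13, another lid subunit, was the lowest of the particle at -0.33 ± 0.38 (limma, adjusted p = 0.636), with 13.04, 14.10 and 14.47 in ob/ob vehicle fat and 13.68, 14.33 and 14.59 in WT fat. The 3 chaperones that assemble the base of this particle, Psmd5, Psmd9 and Psmd10, had -0.34 to 0.49, and none passed (limma, adjusted p = 0.484 to 0.935).

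In the 20S core 1 of 13 measured constitutive subunits rose, 0 fell, and the median difference was 0.22. The share called, 7.69%, was below the 9.02% of all rows called higher. The called gene was Psma1, an alpha-ring subunit, with 12.33, 11.84 and 12.35 in ob/ob vehicle fat, against 11.12, 11.11 and 11.69 in WT fat. Its difference of 0.87 ± 0.26 lay just inside the threshold (limma, adjusted p = 0.0490). Psmb2, a noncatalytic beta subunit, had a larger difference of 0.99 ± 0.38 that did not pass (limma, adjusted p = 0.119): ob/ob vehicle fat had 12.67, 11.73 and 11.71, and WT fat had 10.70, 10.60 and 11.84, so WT replicate 3 reached into the ob/ob range. The measured catalytic subunits, Psmb6 of caspase-like and Psmb7 of trypsin-like activity, had 0.47 ± 0.36 and 0.32 ± 0.22 (limma, adjusted p = 0.446 and 0.384). Psma2, of the alpha ring, was the lowest of the core at -0.24 ± 0.22 (limma, adjusted p = 0.540).

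The interferon-inducible members had values of both signs. Psmb10 had 8.12, 7.86 and 7.85 in ob/ob vehicle fat, against 6.86, 6.02 and 6.54 in WT fat, without overlap. Its rise of 1.47 ± 0.31 or 2.77-fold was the largest of the set (limma, adjusted p = 0.0109). Psmb8 and Psmb9, encoded beside each other in the MHC region, had 0.11 ± 0.42 and -0.02 ± 0.37 (limma, adjusted p = 0.899 and 0.984), and their groups overlapped. In Psmb8, ob/ob vehicle fat had 8.05, 7.41 and 7.19, inside the WT span of 7.40, 6.65 and 8.27. No PA28 gene passed: Psme2, the beta subunit, had 0.76 ± 0.27 and its gene copy Psme2b 0.89 ± 0.33 (limma, adjusted p = 0.0955 and 0.104), whereas Psme1 had -0.94 ± 0.32 (limma, adjusted p = 0.0820), the lowest value of the 50 genes. Whether Psme1 and Psme2 differed from each other was not tested. Psme1 had 13.10, 12.07 and 12.44 in ob/ob vehicle fat and 13.80, 12.97 and 13.67 in WT fat, so that ob/ob vehicle replicate 1 passed WT replicate 2. It passed the test as lower only after quantile normalization (-1.34, limma adjusted p = 0.0347), without ob/ob vehicle replicate 1 (-1.23, adjusted p = 0.0408) and without WT replicate 2 (-1.198, adjusted p = 0.0395). The arrays left out there are the ones that overlapped. Under the other alternatives that leave at least 2 arrays per group Psme1 did not pass, with an adjusted p up to 0.26 (limma, without ob/ob vehicle replicate 2).

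Of the activators outside PA28, Psme3, the nuclear activator that does not depend on interferon, had 12.51, 12.89 and 12.22 in ob/ob vehicle fat, against 10.99, 11.56 and 11.59 in WT fat. The rise was 1.16 ± 0.26 or 2.23-fold (limma, adjusted p = 0.0145), and all ob/ob vehicle arrays were above all WT arrays. Psme4, the activator known as PA200, had 0.57 ± 0.32 (limma, adjusted p = 0.287), and Psmf1, the inhibitor PI31, had 0.06 ± 0.30 (limma, adjusted p = 0.922). Of the 4 chaperones of 20S assembly, Psmg2 had the highest difference at 0.91 ± 0.32 (limma, adjusted p = 0.0872) and Psmg1 the lowest at -0.13 ± 0.30 (limma, adjusted p = 0.832). The testis subunit Psma8 and the thymus subunit Psmb11 stayed below the array medians on all 9 arrays, as did Psmg3 and Psmg4, and their differences were 0.21 ± 0.33 and -0.05 ± 0.28 (limma, adjusted p = 0.731 and 0.928). Psmc3ip had -0.40 ± 0.29 and Psme3ip1 -0.30 ± 0.36 (limma, adjusted p = 0.411 and 0.646), opposite in sign to the median of the 50 genes.

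The count of 7 moved with single arrays: it was 3 without ob/ob vehicle replicate 2, 3 without ob/ob vehicle replicate 3 and 4 without WT replicate 1. After quantile normalization 4 genes passed. Of 21 alternatives that leave at least 2 arrays per group, Psmd14 and Psmd4 each lost their calls in 6 and Psme3 in 2, against 16 for Psma1, 14 for Psmd3 and 0 for Psmc4 and Psmb10. Without WT replicates 1 and 2, where epithelial transcripts were highest, WT is 1 array that is assumed to vary like the other groups: 5 genes then passed, and the log2 differences to that array were 1.17 for Psmc4 and 1.40 for Psmb10.

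In VE against ob/ob vehicle fat, the comparison that concerns the extract, 0 of the 50 genes passed (limma), next to 0.0255% of all rows, which are 5 rows. At an unadjusted p under 0.05, 7 genes differed (14% of the set, against 4.56% of all rows): 6 were higher (12%, against 2.91% of all rows) and 1, Psmb11, was lower. The values leaned upward without passing one by one: the log2 difference was above 0 in 40 of 50 genes, against 46.7% of all rows, and the median was 0.26, against -0.02 over all rows. In 8 genes every VE array was above every ob/ob vehicle array (5.77% of all rows), and in 2, Psma8 and Psmb11, every VE array was below (6.79% of all rows). Genes of 1 complex are not independent of each other, so the count of positive values carries no p.

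The constitutive 20S core had positive values in 13 of 13 genes, between 0.11 for Psma1 and 1.00 for Psma7, with a median of 0.37. Psma7, an alpha-ring subunit, had 11.65, 11.47 and 11.39 in VE fat, against 10.69, 10.08 and 10.73 in ob/ob vehicle fat. These groups were apart by 1.00 ± 0.27 or 2.00-fold, and the test did not pass (limma, adjusted p = 0.614). Psmb7 had 13.22, 13.50 and 13.06 in VE fat, against 12.59, 12.40 and 12.42 in ob/ob vehicle fat, a difference of 0.79 ± 0.22 (limma, adjusted p = 0.637), again without overlap. Psma3, also of the alpha ring, had 12.27, 11.62 and 12.34 in VE fat, against 11.03, 11.05 and 11.78 in ob/ob vehicle fat, a difference of 0.79 ± 0.30 (limma, adjusted p = 0.990) in which VE replicate 2 fell inside the ob/ob vehicle range. Psmb6 and Psmb2 had 0.68 ± 0.36 and 0.74 ± 0.38 (limma, adjusted p = 1.000 for both) with overlapping groups.

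The 19S particle had positive values in 14 of 17 genes with a median of 0.21. Its ATPase Psmc4, already higher in obese fat, had 11.42, 11.06 and 11.14 in VE fat, against 10.93, 10.50 and 10.49 in ob/ob vehicle fat. VE and ob/ob vehicle arrays did not overlap, and the difference was 0.57 ± 0.24 (limma, adjusted p = 1.000). Psmd14 had 10.58, 10.24 and 10.82 in VE fat, against 9.27, 10.06 and 10.26 in ob/ob vehicle fat, a difference of 0.68 ± 0.30 (limma, adjusted p = 1.000) with overlapping groups. The 3 subunits with negative values, Psmd13, Psmd3 and Psmd8, lay between -0.19 and -0.06, and Psmd4 was at 0.02 ± 0.23. The 95% interval for Psmd4 ran from -0.49 to 0.54, so changes up to that size in either direction remained within the error of these arrays.

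Psme1 had the largest difference of the set, with 13.81, 13.90 and 14.19 in VE fat, against 13.10, 12.07 and 12.44 in ob/ob vehicle fat. All VE arrays were above all ob/ob vehicle arrays by 1.43 ± 0.32 on average, or 2.69-fold, and the adjusted p was 0.439 (limma; unadjusted p = 0.00123). Psme2 and Psme2b had 0.32 ± 0.27 and 0.24 ± 0.33, and the immunoproteasome subunits Psmb8, Psmb9 and Psmb10 had 0.22 ± 0.42, 0.36 ± 0.37 and 0.30 ± 0.31, with overlapping groups in each (limma, adjusted p = 1.000 for all 5). In Psmb9, VE fat had 6.5, 6.04 and 5.02, so that 1 VE array lay below all ob/ob vehicle arrays at 5.35, 5.44 and 5.69. Psme3 was slightly negative at -0.21 ± 0.26 (limma, adjusted p = 1.000). The macrophage list, which set both obese groups apart from WT, had 0 of 21 genes called in VE against ob/ob vehicle, with 12 of 21 above 0 and array means that overlapped. The adipocyte list also had 0 genes called there, while 14 of its 18 genes were above 0 with a median of 0.11, and 3 had an unadjusted p under 0.05 (16.7% of the list, against 2.91% of all rows higher). These were Retn (resistin) at 2.53 ± 0.70, Thrsp, a lipogenic gene, at 1.36 ± 0.51 and Adipoq (adiponectin) at 0.64 ± 0.28 (limma, adjusted p = 0.630, 0.961 and 1.000). Its part in the proteasome values was not tested.

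**Figure D2:**
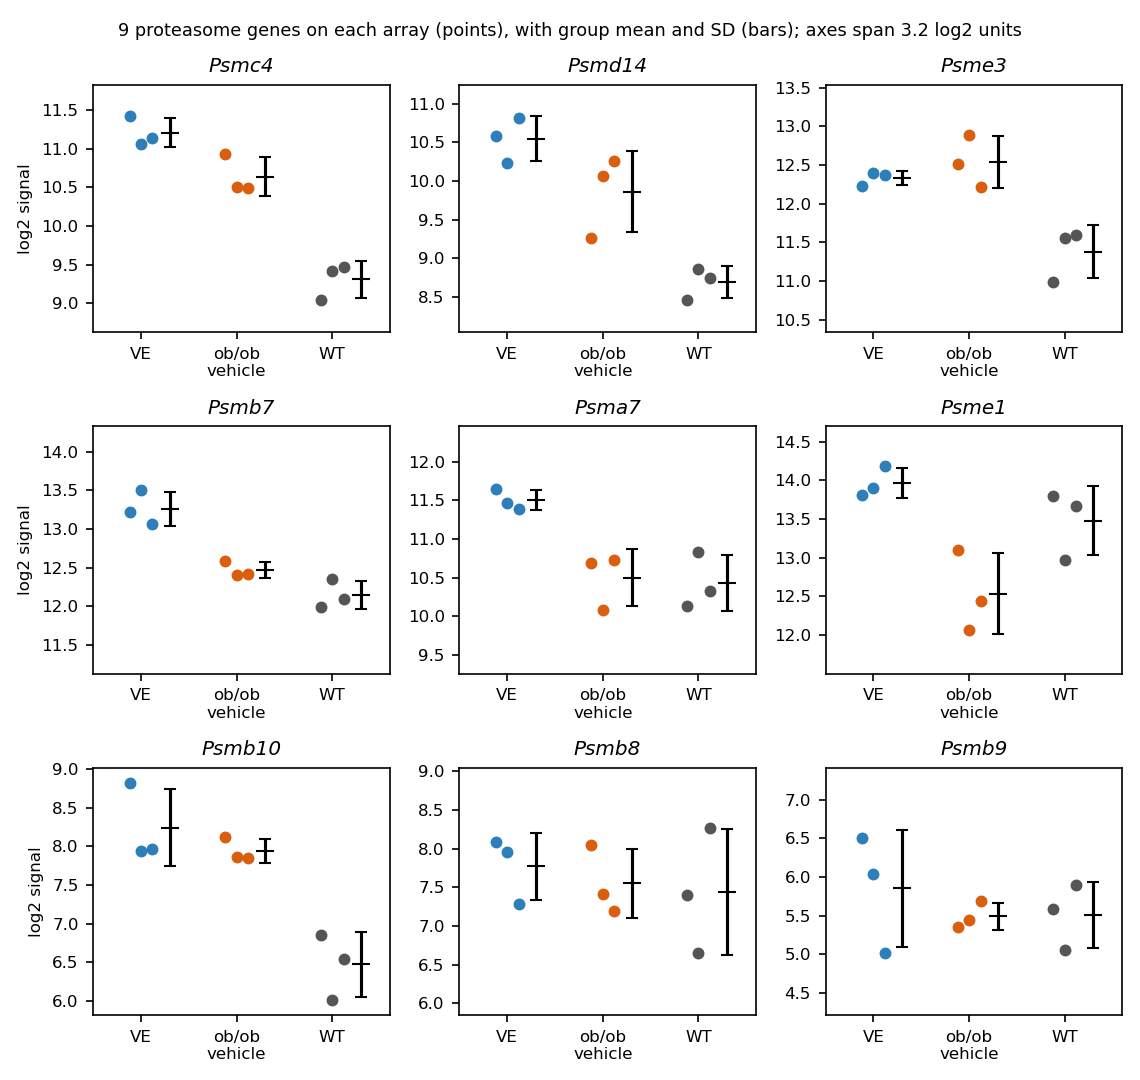
Log2 signals (y axis, 3.2 units tall in each panel) of 9 proteasome genes on the VE, ob/ob vehicle and WT arrays (x axis); coloured points are single arrays, and black bars are the group mean and SD. Psmc4, Psmd14 and Psmb10 are lowest in WT, Psmb7, Psma7 and Psme1 are highest in VE, and the 3 groups of Psmb8 overlap.

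In VE against WT fat, 17 of 50 genes rose and 0 fell by limma. This is 34% of the set, against 20.0% of all rows called in either direction, 12.4% of them higher and 7.58% lower. Both comparisons with WT use the same WT arrays, and this one adds what separates VE from ob/ob vehicle to what separates ob/ob vehicle from WT, so it is not independent of them. The median log2 difference was 0.61, against -0.07 over all rows, with values above 0 in 43 of 50 genes (45.4% of all rows). After quantile normalization 5 genes passed. VE arrays were all above WT arrays in 28 genes (19.5% of all rows) and all below in 2, Psmb11 and Psmc3ip (17.7% of all rows).

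Both the core and the regulatory particle held called genes here: 6 of 13 constitutive 20S genes passed with a median of 0.97, and 7 of 17 genes of the 19S particle with a median of 0.85. These are 46.2% and 41.2%, next to 12.4% of all rows called higher. In the core the called genes were Psma1, Psma3, Psma7, Psmb2, Psmb6 and Psmb7. Psmb2 rose most among them, with 13.03, 12.75 and 12.56 in VE fat, against 10.70, 10.60 and 11.84 in WT fat, by 1.73 ± 0.38 or 3.32-fold (limma, adjusted p = 0.0114). Psmb7 had 13.22, 13.50 and 13.06 in VE fat and 11.99, 12.35 and 12.10 in WT fat, a rise of 1.11 ± 0.22 (limma, adjusted p = 0.00656), and Psma3 rose by 1.26 ± 0.30 (adjusted p = 0.0162). No array of VE overlapped a WT array in any of the 6 genes, while Psmb1, Psmb3 and Psmb4 of the beta ring had 0.03 to 0.41 with overlapping groups.

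In the 19S particle Psmc4 rose by 1.90 ± 0.24 or 3.72-fold, the smallest p of the set (limma, adjusted p = 5.4e-04), with 11.42, 11.06 and 11.14 in VE fat, against 9.04, 9.42 and 9.47 in WT fat. Psmd14 rose by 1.85 ± 0.30 or 3.61-fold (limma, adjusted p = 0.00233), with 10.58, 10.24 and 10.82 in VE fat, against 8.46, 8.87 and 8.75 in WT fat. The lid subunits Psmd12 and Psmd6 rose by 1.05 ± 0.22 and 1.03 ± 0.29 (limma, adjusted p = 0.00906 and 0.0344). Psmd4, Psmd3 and the ATPase Psmc2 rose by 0.98 ± 0.23, 0.79 ± 0.24 and 0.91 ± 0.24 (limma, adjusted p = 0.0150, 0.0448 and 0.0227). Of the 21 alternatives, Psmd3 lost its call in 15 and Psmd6 in 9, Psmb6 of the core in 11 and Psme2b of PA28 in 10. Psmc3, in contrast, was at 0.03 ± 0.24 and Psmd13 at -0.52 ± 0.38 (limma, adjusted p = 0.951 and 0.370).

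Of the interferon-inducible members 3 of 6 rose (50%, next to 12.4% of all rows called higher). Their mean levels differ widely, and the share of rows called higher ran from 1.87% at levels under 6 to 32.1% at 12 to 14. Psmb10 had 8.82, 7.94 and 7.97 in VE fat, against 6.86, 6.02 and 6.54 in WT fat, a rise of 1.77 ± 0.31 or 3.41-fold (limma, adjusted p = 0.00362). Psme2 and Psme2b rose by 1.08 ± 0.27 and 1.13 ± 0.33 (limma, adjusted p = 0.0205 and 0.0357). These 2 rows stand for near-copies, and whether their probes read each other's transcripts was not tested. Psme1 had 0.49 ± 0.32 (limma, adjusted p = 0.318) and no overlap, with its lowest VE array at 13.81 and its highest WT array at 13.80. Psmb8 and Psmb9 had 0.33 ± 0.42 and 0.34 ± 0.37 (limma, adjusted p = 0.614 and 0.556). Psme3 rose by 0.95 ± 0.26 (limma, adjusted p = 0.0278), and the assembly chaperones, Psme4, Psmf1 and the tissue-restricted subunits did not pass (limma, adjusted p = 0.0616 to 0.906). The count of 17 was 7, 8 and 9 without VE replicates 1, 2 and 3, and 10 without WT replicate 1; it was 9, of which 1 was lower, without WT replicates 1 and 2, where WT is 1 array assumed to vary like the other groups.

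**Figure D3:**
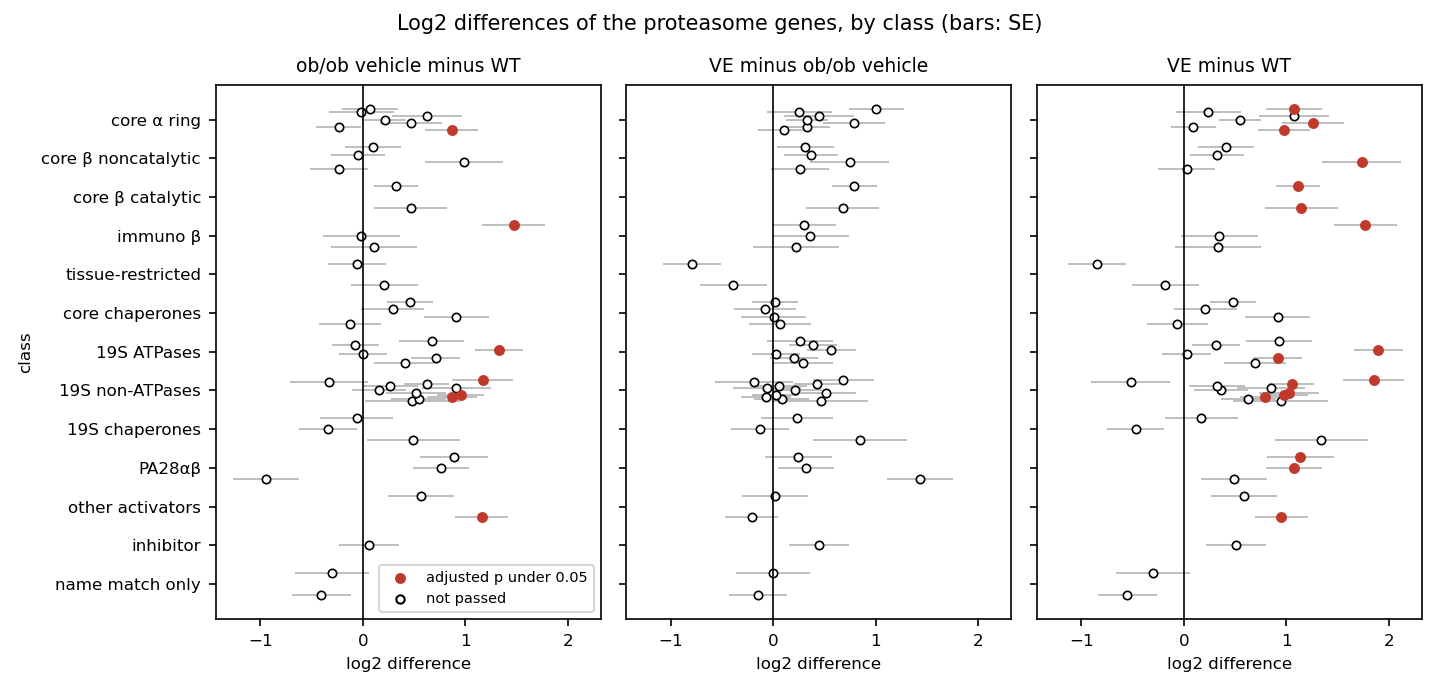
Log2 differences (x axis) of the 50 genes in 3 comparisons (panels), by class (y axis); bars are SE, filled points passed limma's adjusted p of 0.05 and open points did not. Filled points lie right of 0 in both comparisons with WT and there are none in VE against ob/ob vehicle, where all 13 constitutive 20S genes lie right of 0.

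Whether immune subunits gained on their constitutive counterparts was read within each array as the difference of the log2 values, for the measured pairs Psmb9 and Psmb6, and Psmb10 and Psmb7. Psmb10 minus Psmb7 was -4.47, -4.54 and -4.57 in ob/ob vehicle fat, against -5.13, -6.33 and -5.56 in WT fat. All ob/ob vehicle arrays were above all WT arrays by 1.15 on average, and the exact two-sided permutation p was 0.1, the smallest that 3 against 3 arrays can give (0.6 after Benjamini-Hochberg adjustment over 6 tests). In VE fat the same difference was -4.40, -5.56 and -5.09, a mean shift of -0.49 against ob/ob vehicle and 0.66 against WT, with overlapping groups (exact permutation p = 0.4 and 0.3). Psmb9 minus Psmb6 shifted by -0.48 in ob/ob vehicle against WT, by -0.32 in VE against ob/ob vehicle and by -0.80 in VE against WT (exact permutation p = 0.6, 0.5 and 0.2). The mean shifts of the 2 pairs had opposite signs in obese against lean fat, but neither passed after adjustment. Psmb9 minus Psmb6 was -7.40, -5.92 and -6.00 in ob/ob vehicle fat, against -5.70, -6.25 and -5.92 in WT fat. With 1 array left out its shift ran from -0.743 to -0.003. Psmb9 was also below the array median on all ob/ob vehicle and WT arrays, so no contrast between the pairs was drawn. A shift shows unequal change of 2 transcripts and says nothing of assembled protein.

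Read array by array, the whole set kept the 3 groups apart. The median deviation of the 50 genes from their own means was 0.22 to 0.45 on VE arrays, -0.07 to 0.13 on ob/ob vehicle arrays and -0.47 to -0.23 on WT arrays, without overlap between groups. Over all rows the same median stayed between -0.04 and 0.01 on every array. Brighter rows did move against WT. In rows with a mean level of 10 to 12, the median log2 difference was 0.29 in ob/ob vehicle and 0.41 in VE fat. At 12 to 14 it was 0.39 and 0.59. In the constitutive core the median deviation was 0.27 to 0.54 on VE arrays, -0.22 to 0.12 on ob/ob vehicle arrays and -0.68 to -0.23 on WT arrays. In the 19S particle it was 0.34 to 0.43 on VE arrays, 0.07 to 0.26 on ob/ob vehicle arrays and -0.47 to -0.33 on WT arrays. By this median neither list had groups that overlapped. In the core the lowest ob/ob vehicle array (-0.2167) was barely above the highest WT array (-0.2267). By the mean log2 value the core groups did overlap, with 11.468 on ob/ob vehicle replicate 2 and 11.493 on WT replicate 3. The 19S groups stayed apart by that mean. The log2 of their summed signal overlapped between VE (16.234 to 16.374) and ob/ob vehicle arrays (16.012 to 16.34). For the 6 interferon-inducible genes the ranges of the median deviation were 0.15 to 0.80 on VE arrays, -0.21 to 0.35 on ob/ob vehicle arrays and -0.79 to -0.02 on WT arrays, which overlapped. Within a group the median SD of a proteasome gene was 0.24 in VE fat, 0.31 in ob/ob vehicle fat and 0.34 in WT fat, next to 0.26 in VE, 0.30 in ob/ob vehicle and 0.41 in WT fat over all rows.

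**Figure D4:**
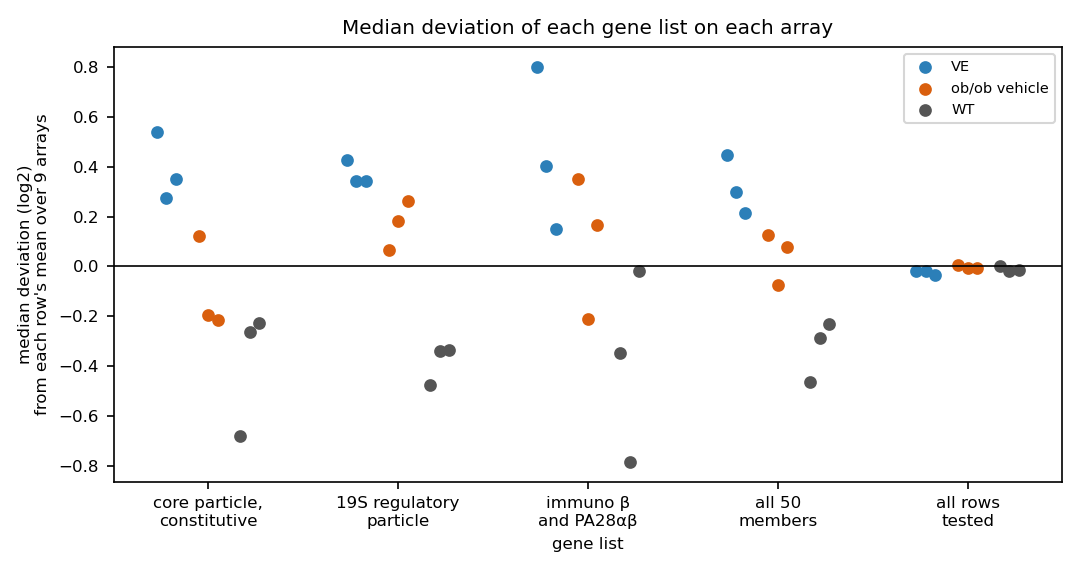
Median deviation, in log2 units, of the genes of a list from their own means over 9 arrays (y axis) for 4 gene lists and all rows tested (x axis); each point is 1 array of VE, ob/ob vehicle or WT. For all 50 genes the VE arrays lie at 0.22 to 0.45, above ob/ob vehicle and WT, and all rows lie near 0.

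The difference of a row also moved with its level. Rows with higher signal had higher differences in general, so the genes were also read against rows of like mean level, in bins chosen after the data were seen. Of the 50 genes, 21 had a mean of 10 to 12 and 13 a mean of 12 to 14, where few of all rows lie (2097 and 957). In the bin of 10 to 12, the median in VE against ob/ob vehicle was 0.33 for 21 proteasome genes, 19 of them above 0, against 0.05 and 56.8% above 0 for all rows. In the same bin it was 0.48 against 0.29 in ob/ob vehicle against WT, with 4 of 21 genes called higher next to 18.7% of rows. In VE against WT it was 0.94 against 0.41, with 10 of 21 called higher next to 25.4% of rows. In the bin of 12 to 14 the 13 genes had 0.20 against 0.08 in VE against ob/ob vehicle, but 0.32 against 0.39 in ob/ob vehicle against WT and 0.59 against 0.59 in VE against WT. There 1 of 13 genes was called higher in ob/ob vehicle against WT, next to 23.1% of rows, and 4 of 13 in VE against WT, next to 32.1%. The 8 genes with a mean of 8 to 10 had 0.22 against 0.22 in ob/ob vehicle against WT, 0.24 against 0.06 in VE against ob/ob vehicle and 0.61 against 0.30 in VE against WT, and 1 and 2 of them were called higher in ob/ob vehicle and in VE against WT, next to 16% and 22% of rows. For the 13 genes of 12 to 14 the medians in both comparisons with WT were thus no higher than those of all rows at the same level, and the part of the level in the differences was not tested further. Quantile normalization, which gives all arrays 1 distribution, left medians of 0.16 in ob/ob vehicle against WT, 0.13 in VE against ob/ob vehicle and 0.37 in VE against WT.

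**Figure D5:**
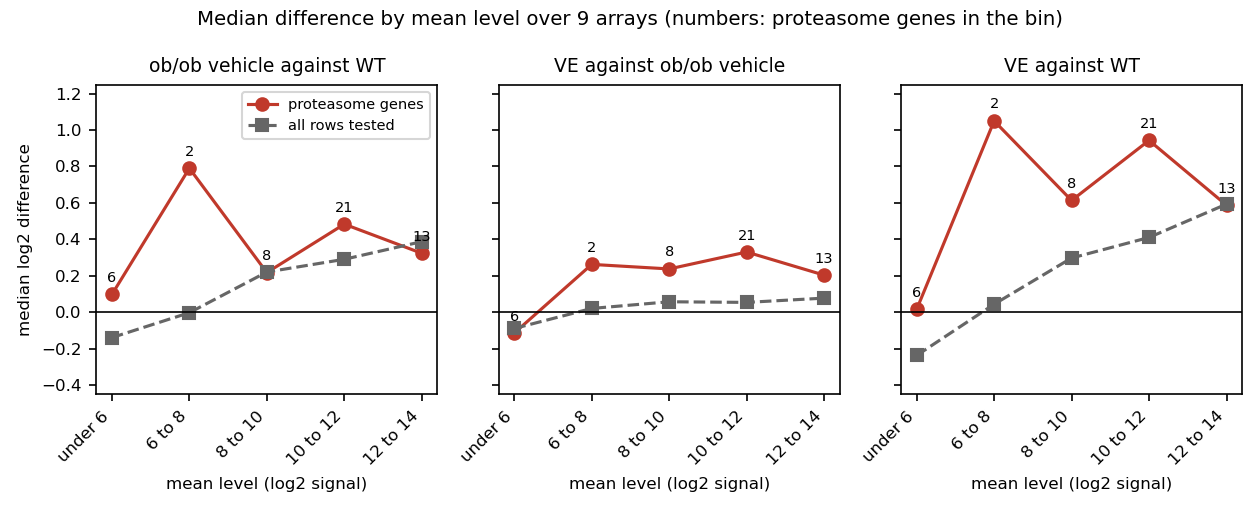
Median log2 difference (y axis) of the proteasome genes and of all rows tested, by the mean log2 signal over 9 arrays (x axis), in 3 comparisons; numbers give the proteasome genes in a bin. All rows climb with level in both comparisons with WT, and in VE against ob/ob vehicle the proteasome genes lie above all rows in each bin from 6 upward.

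Partners of the proteasome outside the Psm names were followed in 7 lists. In ob/ob vehicle against WT the share called was 13.3% in the list of partners, 18.2% in that of NRF1 and NRF2, 7.14% in that of p97, 9.09% in that of peptide loading, 16.7% in the interferon gamma list and 0 in the other 2 lists, next to 14.1% of all rows. Of 15 measured shuttles, receptors and other partners, 2 rose in ob/ob vehicle over WT fat: Zfand2a, a stress-induced proteasome-binding protein, by 2.95 ± 0.74, and Ubqln2, which carries ubiquitinated proteins to the proteasome, by 2.31 ± 0.37 (limma, adjusted p = 0.0256 and 0.00255). Ubqln2 had 9.99, 10.03 and 9.83 in ob/ob vehicle fat, against 6.67, 7.99 and 8.26 in WT fat. The core assembly factor Pomp had 0.32 ± 0.31 in this comparison and 0.57 ± 0.31 in VE against ob/ob vehicle, and the small lid subunit Sem1 had 0.89 ± 0.35 and -0.08 ± 0.35, and neither gene passed (limma, adjusted p = 0.127 to 1.000).

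Nfe2l1 itself did not pass, at 0.20 ± 0.33 in ob/ob vehicle against WT and -0.13 ± 0.33 in VE against ob/ob vehicle (limma, adjusted p = 0.744 and 1.000). In the list of 11 measured NRF1 and NRF2 genes, the small partner Maff rose by 1.82 ± 0.41 in ob/ob vehicle over WT fat, and Btrc, a ubiquitin ligase adaptor that targets NRF1, fell by 1.09 on the log2 scale (SE 0.23; limma, adjusted p = 0.0159 and 0.00989). Nfe2l2, which encodes NRF2, had 0.52 ± 0.34 and 0.44 ± 0.34 in those comparisons without passing (limma, adjusted p = 0.368 and 1.000). Among 14 genes of the p97 segregase, which extracts ubiquitinated proteins ahead of the proteasome, the cofactor Ubxn2b fell by 1.40 on the log2 scale in ob/ob vehicle against WT (limma, adjusted p = 0.00361). In VE against WT 4 of the 14 were called (28.6%, next to 20.0% of all rows): Nploc4, Ubxn6 and Ufd1 rose by 1.34, 1.21 and 1.14, and Ubxn2b fell by 1.23 on the log2 scale (limma, adjusted p = 0.00602 to 0.0470).

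Of 11 measured genes of peptide loading on MHC class I, the step that takes up the immunoproteasome's products, Tapbp (tapasin) was the only one called in ob/ob vehicle against WT, with 12.99, 13.20 and 13.17 in ob/ob vehicle fat, 12.07, 12.18 and 11.84 in WT fat, and a rise of 1.09 ± 0.21 (limma, adjusted p = 0.00638). In the interferon gamma list 3 of 18 genes rose, the receptor chain Ifngr2 by 1.94, the transcription factor Irf8 by 1.47 and the kinase Jak1 by 0.90 (limma, adjusted p = 0.00122 to 0.0446), while the median of the list was -0.10. Irf1, which drives immunoproteasome genes, had -0.44 ± 0.37 and did not pass (limma, adjusted p = 0.486). Neither list had a called gene in VE against ob/ob vehicle. In the COP9 signalosome, a complex built like the 19S lid that removes NEDD8 from cullin ligases, 1 of 10 genes rose there: the small subunit Cops9 by 4.38 ± 0.38 (limma, adjusted p = 0.00739). Cops9 had the largest difference of all rows and is 1 of the 5 rows called. The list was chosen with earlier results of these data known. Its share called (10%, next to 0.0255% of all rows) is therefore no result about the complex. The catalytic subunit Cops5 had 11.33, 11.34 and 11.31 in VE fat, against 10.80, 10.38 and 10.50 in ob/ob vehicle fat, a difference of 0.77 ± 0.21 (limma, adjusted p = 0.625) without overlap, and 9 of the 10 genes had positive values. The ubiquitin-activating enzyme Uba6, the 1 measured gene of 6 listed for ubiquitin supply, had 0.96 ± 0.51 in ob/ob vehicle against WT (limma, adjusted p = 0.249).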

How the data were processed

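RNA of 9 white fat samples was hybridized to Clariom S arrays, and the deposited table holds 1 log2 value per row and array, which the authors made by SST-RMA (the design text names Transcriptome Analysis Console 4.0.2, and the submitters' processing notes name version 4). The genome build was not given in the sources used here, and detection calls were not used here. The platform annotation gives 1 gene symbol for 19572 of 22206 rows, several for 0 and none for 2634. They stand for 19505 genes, and the row of highest mean over all arrays stood for a gene. Values were used as deposited, with no pseudocount and no filter. Samples were grouped by their titles, and the design text gives 3 mice per group; the labels do not say that mice were housed or processed apart. Arrays have no read depth, so their number limits the precision.

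In R 4.3.3, limma 3.58.1 fitted a mean for each of 3 groups to the 9 arrays and moderated the variances by empirical Bayes, with 4.02 prior degrees of freedom. P-values are two-sided and adjusted by Benjamini-Hochberg over the 19572 rows of each comparison, and a call is an adjusted p under 0.05. The members, their classes, the partner and marker lists and the tests were chosen with earlier results of these data known. Genes were named by a rule: the catalytic, immunoproteasome and PA28 subunits, called members up to 12 per comparison, and the extremes of each class by moderated t; the other called members in VE against WT and the genes with no overlap were named after their values were seen. Partner genes were named if measured and fixed in advance, or if called in ob/ob vehicle against WT or in VE against ob/ob vehicle. Calls in VE against WT were described only for the p97 list. Zfand2a, Ubqln2, Maff, Btrc, Tapbp, Ifngr2, Cops9, Cops5, Cops6 and Gbp2 were also called there. Cops5 and Uba6 were named outside this rule. Pairs of subunits were compared by exact permutation over arrays; Psmb5 was not analysed here, so 2 pairs and 6 tests were made in place of 3 pairs. Lists are given as counts and medians beside all rows. Promoters come from RefSeq (GRCm38.p6) and were searched for TGACNNNGC, the interferon-stimulated response element (GAAA, any pair of bases, GAAA), TTCNNNGAA and CCAAT on both strands. The fit was tested on simulated data for 19572 rows. Alternatives were other groups in the fit, a replicate block, other priors, array weights, 2 normalizations, the dimmest 30% of rows left out, all rows tested, the submitters' threshold (unadjusted p under 0.05 and fold over 1.1), gene means, removal of a trend on gene span, and arrays left out.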

Additional observations from a re-analysis of the deposited data

How the results depend on the processing

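Psmc4 and Psmb10 passed in both comparisons with WT under the 21 alternatives that leave at least 2 arrays per group, with adjusted p up to 0.0204 and 0.0449 in ob/ob vehicle against WT, while in that comparison Psma1 no longer passed in 16, Psmd3 in 14, Psmd14 and Psmd4 in 6 and Psme3 in 2 of 21. In VE against WT, Psmd14 also passed in all 21, and calls were lost in 15 for Psmd3, 11 for Psmb6, 10 for Psme2b, 9 for Psmd6 and 1 to 6 for the other called genes. Without WT replicates 1 and 2, WT is 1 array assumed to vary like the other groups, so values there have no check of their own spread. Over 42 results for single genes and 924 alternative values, 766 kept direction and side of the threshold, 139 no longer passed, 3 passed newly (Psme1) and 16 changed sign. In ob/ob vehicle against WT, 7 members were called in the fit as reported, 2 with only both groups in the fit, 4 with no empirical Bayes, 4 after quantile normalization, 15 at the submitters' threshold and 3 to 8 with 1 array left out. In VE against ob/ob vehicle, 0 became 7 at the submitters' threshold and stayed 0 under the other 22 alternatives. In VE against WT, 17 became 5 after quantile normalization, 9 without WT replicates 1 and 2, 26 at the submitters' threshold and 7 to 19 with 1 array left out. Quantile normalization moved the members' medians to 0.16, 0.13 and 0.37, whereas it moved the median of all rows by 0.02, 0.01 and 0.05; with 1 array left out the medians were 0.29 to 0.38 in ob/ob vehicle against WT, 0.15 to 0.32 in VE against ob/ob vehicle and 0.57 to 0.69 in VE against WT. Signs changed only for values that had not passed. In ob/ob vehicle against WT, Psmb7 was -0.032 after quantile normalization; Psmb8 was -0.72 without WT replicates 1 and 2 and -0.285 to 0.525 with 1 array left out (-0.14 without ob/ob vehicle replicate 1, -0.285 without WT replicate 2); and Psmb9 was 0.052 with array weights, 0.12 after quantile normalization, 0.053 after median centring, and -0.25 to 0.18 with 1 array left out. Psme2b in VE against ob/ob vehicle was -0.017 to 0.46 with 1 array left out, negative without VE replicate 1. In VE against WT, Psmb8 was -0.50 without WT replicates 1 and 2 and -0.062 to 0.748 with 1 array left out, negative without WT replicate 2, Psmb9 was -0.047 without WT replicates 1 and 2, and Psme1 was -0.061 after quantile normalization. Psmb9 minus Psmb6 in VE against ob/ob vehicle ran from -0.80 to 0.245 with 1 array left out, positive without VE replicate 3. The cause of these shifts was not tested. Same-numbered arrays of different groups correlated at -0.06 to 0.18, so the numbers were not taken as pairs; with the replicate block 6, 0 and 15 members were called in ob/ob vehicle against WT, VE against ob/ob vehicle and VE against WT.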
